A study of Homo sapiens with 6 samples.

Results

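Panc-1 is an established cell line from a human pancreatic carcinoma. Long intergenic RNAs carrying a LINC name were described in these cells after exposure to medium conditioned by cancer-associated fibroblasts (CAFs). CAFS-CM was medium of a CAF line from a chemosensitive tumor and CAFR-CM was medium of a CAF line from a chemoresistant tumor. Panc-1 cells of both groups were kept in their medium for 72 h, and RNA of 3 samples per group was sequenced. Each group's medium was taken from a single CAF line. The p-values below therefore reflect how the 3 samples of a group vary, and say nothing of how CAF lines vary. No group without conditioned medium was part of this comparison. The study asked which long non-coding RNAs differ in tumor cells between the media.

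Members were the gene rows whose symbol is LINC followed by a number and whose mean over the 6 samples was at least 1 FPKM (sequenced fragments relative to the transcript's length and the library's total). This rule selected 191 of the 1332 LINC rows, out of 42495 gene rows in all. Members were thus selected on their measured level, which is given as a description. Just inside the limit were LINC00638 (1.00 FPKM), LINC01949 and LINC00685, and just outside it were LINC00908 (0.997 FPKM), LINC01461 (0.993 FPKM) and LINC01410 (0.992 FPKM). The mean of both groups was at least 1 FPKM in 168 members. It reached that level only after CAFR-CM in 21 members and only after CAFS-CM in 2. All 191 passed the low-value filter of the test, which kept 23608 genes above 0.1 FPKM in at least 3 samples.

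A LINC symbol is a placeholder given to a long non-coding RNA that lies between protein-coding genes and has no established function of its own to be named after. Like messenger RNAs, most are made by RNA polymerase II, capped and spliced, but many stay in the nucleus and are degraded there by the RNA exosome soon after they are made. Some act on the gene beside them, some act elsewhere as scaffolds or by binding microRNAs, and for many no function is known. In pancreatic and other carcinomas several of them are followed as markers of growth, invasion or drug response.

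By the GENCODE v44 annotation of GRCh38, 183 of the 191 members were found, 171 by their symbol and 12 by the symbol that RefSeq gives them now. Of these, 181 were typed as lncRNA and 2 as pseudogenes. The median member had 6 exons, 3812 exonic bases and a span of 25271 bases, and its start lay 47159 bases from that of the nearest protein-coding gene. Despite the name, 32 members overlapped a protein-coding gene, 22 of them on the opposite strand and 9 on the same strand, and 20 shared exonic bases with it. A further feature was a start within 1000 bases of that of a protein-coding gene on the opposite strand, called head to head here. This held for 15 members. Some of them, such as LINC00649 with ATP5PO, also overlapped that gene, so not all point away from it. In 26 members at least 10% of the 75-base stretches also occurred in the transcripts of another gene. The gene sharing most of them was another LINC gene in some cases and had no LINC name in others. LINC00941 (94.5%), LINC01106 (84.8%, mostly with LINC01123) and LINC02591 (81.8%, mostly with LINC01145) were the most shared of the members named here, and their FPKM are uncertain for that reason.

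The promoters of 8 members that the results turn on are printed as RefSeq gives them on GRCh38.p14, from 250 bases before to 50 bases after the start. They were chosen for their calls or their level, and LINC00893 and LINC01569 because they hold an NF-kB match. The first 5 belong to members higher after CAFR-CM and the last 3 to members lower. Capitals mark matches to the motifs of the 3 factors that the study considered downstream of the cytokine IL8. These are the hypoxia response core (ACGTG or GCGTG) of HIF-1, the NF-kB consensus and the STAT consensus TTCNNNGAA, searched on both strands.
LINC01770, chr1:1434524-1434823, minus strand: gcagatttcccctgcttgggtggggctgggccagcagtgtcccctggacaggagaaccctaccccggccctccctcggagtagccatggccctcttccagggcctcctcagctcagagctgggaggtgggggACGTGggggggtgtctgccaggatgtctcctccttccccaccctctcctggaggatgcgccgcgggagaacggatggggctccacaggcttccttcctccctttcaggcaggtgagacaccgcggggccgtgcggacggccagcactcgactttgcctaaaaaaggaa
LINC00482, chr17:81309199-81309498, minus strand: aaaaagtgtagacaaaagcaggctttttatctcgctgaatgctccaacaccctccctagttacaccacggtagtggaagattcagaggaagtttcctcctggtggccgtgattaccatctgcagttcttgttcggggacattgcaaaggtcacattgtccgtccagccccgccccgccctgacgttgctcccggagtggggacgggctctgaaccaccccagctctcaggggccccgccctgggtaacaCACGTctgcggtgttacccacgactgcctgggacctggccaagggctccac
LINC00893, chrX:149539703-149540002, minus strand: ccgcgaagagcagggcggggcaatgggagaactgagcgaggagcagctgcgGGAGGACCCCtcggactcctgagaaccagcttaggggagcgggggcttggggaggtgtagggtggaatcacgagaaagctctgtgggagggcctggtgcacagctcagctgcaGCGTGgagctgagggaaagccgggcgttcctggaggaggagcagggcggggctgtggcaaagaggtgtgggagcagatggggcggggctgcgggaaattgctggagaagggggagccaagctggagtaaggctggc
LINC01569, chr16:4253740-4254039, minus strand: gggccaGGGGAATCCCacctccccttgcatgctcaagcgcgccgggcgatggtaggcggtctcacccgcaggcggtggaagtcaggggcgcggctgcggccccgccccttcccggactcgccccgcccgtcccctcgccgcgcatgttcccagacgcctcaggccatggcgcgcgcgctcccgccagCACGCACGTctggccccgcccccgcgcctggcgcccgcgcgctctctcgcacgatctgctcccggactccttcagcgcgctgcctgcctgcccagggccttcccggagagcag
LINC00673, chr17:72592755-72593054, minus strand: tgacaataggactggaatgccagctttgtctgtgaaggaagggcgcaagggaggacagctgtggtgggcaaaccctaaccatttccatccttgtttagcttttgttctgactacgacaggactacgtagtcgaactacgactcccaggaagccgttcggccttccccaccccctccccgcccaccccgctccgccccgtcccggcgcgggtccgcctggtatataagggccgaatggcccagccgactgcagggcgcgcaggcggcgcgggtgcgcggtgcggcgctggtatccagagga
LINC00857, chr10:80207460-80207759, plus strand: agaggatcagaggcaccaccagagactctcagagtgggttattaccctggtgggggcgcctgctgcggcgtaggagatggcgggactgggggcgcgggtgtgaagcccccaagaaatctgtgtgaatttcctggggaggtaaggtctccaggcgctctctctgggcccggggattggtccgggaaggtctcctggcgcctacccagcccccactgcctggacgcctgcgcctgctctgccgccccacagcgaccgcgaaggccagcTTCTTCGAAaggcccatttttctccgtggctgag
LINC01836, chr19:782546-782845, plus strand: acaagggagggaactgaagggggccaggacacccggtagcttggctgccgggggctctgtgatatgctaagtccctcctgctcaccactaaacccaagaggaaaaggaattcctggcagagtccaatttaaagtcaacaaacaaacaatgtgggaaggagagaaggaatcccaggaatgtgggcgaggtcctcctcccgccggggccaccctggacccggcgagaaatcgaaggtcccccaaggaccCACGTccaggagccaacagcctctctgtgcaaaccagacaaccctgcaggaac
LINC00261, chr20:22578593-22578892, minus strand: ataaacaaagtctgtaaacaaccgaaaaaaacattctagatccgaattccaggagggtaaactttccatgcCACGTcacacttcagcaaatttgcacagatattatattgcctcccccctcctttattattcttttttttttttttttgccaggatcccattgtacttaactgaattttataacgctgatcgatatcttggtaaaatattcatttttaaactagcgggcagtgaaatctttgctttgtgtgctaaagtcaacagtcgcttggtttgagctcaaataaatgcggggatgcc

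In these stretches the hypoxia response core began 118 bases before the start of LINC01770, 1 base before that of LINC00482 and 3 bases before that of LINC01836. It also began 86 bases before the start of LINC00893 and 179 bases before that of LINC00261. LINC01569 held it at 2 places, which overlap, and also held an NF-kB match, as did LINC00893. LINC00857 held the STAT consensus after its start, and LINC00673 held none of the 3. Over the 163 promoters that RefSeq lists for 144 members, 57.1% held the hypoxia response core, against 48.4% of all 35116 promoters of the table. The NF-kB consensus was in 6.75% of them against 11.3%, and the STAT consensus in 4.29% against 7.66%. Of the 37 promoters of members higher after CAFR-CM, 64.9% held the hypoxia response core, 13.5% the NF-kB consensus and 2.7% the STAT consensus. A match is a run of letters and not a measured binding site.

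Members differed widely in level but made up little of the RNA. Their means ran from 1.0 to 56.7 FPKM with a median of 2.69 FPKM, and 25 members were at 10 FPKM or more. Summed FPKM over the members was 927.0, 906.6 and 932.0 after CAFS-CM and 1095.3, 1147.2 and 1140.2 after CAFR-CM. All 3 sums after CAFR-CM lay above those after CAFS-CM, with means of 1127.6 ± 28.2 and 921.8 ± 13.5 (SD, n = 3), a ratio of 1.22. Without the 6 members of highest level the ratio was also 1.22. The members held 0.134% to 0.141% of all FPKM after CAFS-CM and 0.156% to 0.172% after CAFR-CM.

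The libraries behind these values summed to 660604 to 701406 FPKM. FPKM hold no counts, so the depth per sample is unknown here and no counting interval is given. Between replicates the median coefficient of variation over members was 13.2% after CAFS-CM and 13.5% after CAFR-CM. For the 25 members at 10 FPKM or more it was 7.02% and 6.56%, and for the 75 members between 1 and 2 FPKM it was 17.7% and 27.1%. Epithelial markers were present in every sample, with KRT8 and KRT18 summing with 4 others to 5920 to 6160 FPKM after CAFS-CM and 4960 to 5170 FPKM after CAFR-CM. Of these markers KRT18 and KRT19 were lower, while CDH1 and EPCAM were higher (ratios of 1.87 and 2.15). The 8 fibroblast markers summed to 39.5 to 44.2 and 50.2 to 57.0 FPKM, nearly all of it from COL1A1, which was higher after CAFR-CM (ratio 1.42), and COL3A1. COL1A2, DCN, LUM and PDGFRA each had a mean of at most 0.107 FPKM in both groups and FAP was at 0 throughout. PDGFRB had a mean of 0.117 FPKM after CAFS-CM and 0.3 FPKM after CAFR-CM, with 0.74 FPKM in CAFR-CM replicate 2. Endothelial markers summed to at most 0.27 FPKM, and of the leukocyte markers CD68 alone was above 0.14 FPKM in any sample. The part of other cells in the results below was not tested beyond these values, and in a bulk sample fewer cells of a type and less RNA per cell cannot be told apart.

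More LINC RNAs were higher than lower after CAFR-CM. With limma on log2(FPKM + 1) and Benjamini-Hochberg adjustment over all genes tested, 47 of the 191 members were higher and 7 were lower at an adjusted p under 0.05, and 137 were not called. Among all genes tested 15.1% were higher and 11.1% lower, and among the 14820 genes with a mean of at least 1 FPKM 19.5% were higher and 17.2% lower. The members' shares were 24.6% and 3.66%. The members were less abundant than those genes, with a median level of 2.69 against 9.98 FPKM, and the shares at like level are given below. Of the 21 members that reached 1 FPKM only after CAFR-CM, which the selection favours, 5 were among the higher. The log2 fold change was above 0 in 144 members and below 0 in 47. Its median was 0.22, against 0.06 over all genes tested and 0.03 over genes with a mean of at least 1 FPKM, which are more abundant. Without CAFS-CM replicate 2, 29 members were higher and 3 lower, and the same counts were found without CAFS-CM replicate 3. Cyclic loess scaling moved the median to 0.08. Fold changes on the log2(FPKM + 1) scale understate the change of low genes.

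The 3 samples of CAFR-CM were all above the 3 of CAFS-CM in 75 members and all below in 11, and the groups overlapped in 105. Over all genes tested the groups did not overlap in 26.4% (higher) and 16.8% (lower). Among the 14820 genes with a mean of at least 1 FPKM they did not overlap in 4319 (higher) and 3689 (lower). Past a log2 fold change of 1, only LINC02575 and LINC01643 were higher and no member was lower. Of all genes tested 1.12% were higher past that limit, and of those 14820 genes 257 were. With a pseudocount of 0.1, 5 members were higher and 1 lower past the limit.

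**Figure D1:**
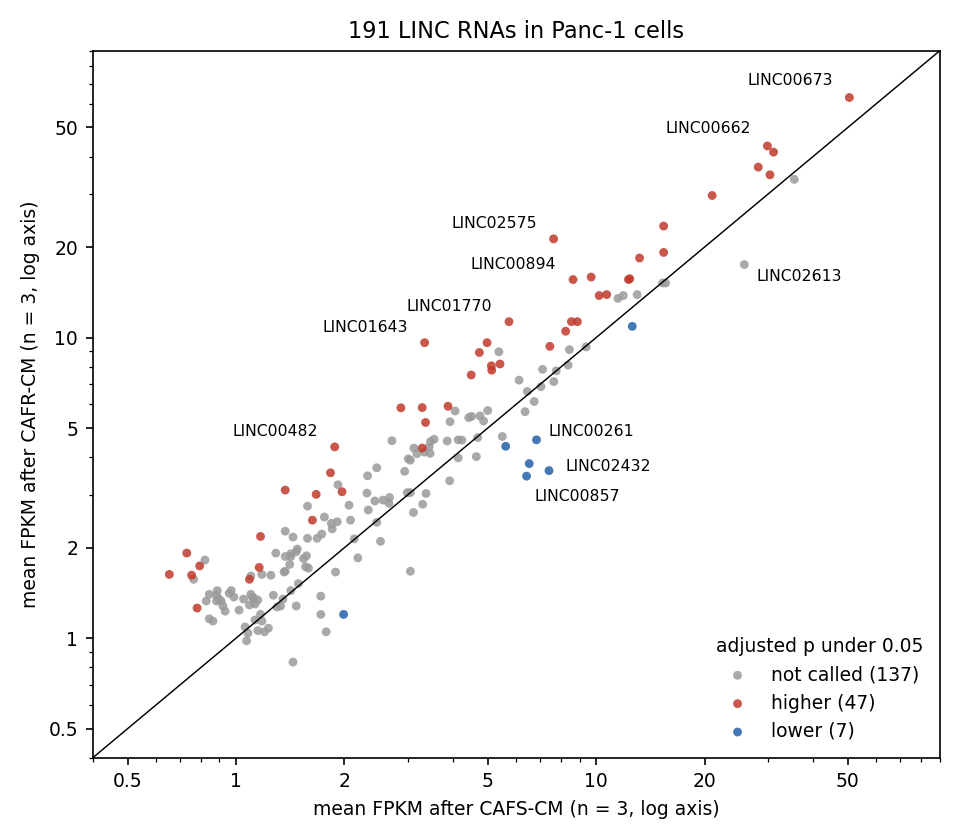
Mean FPKM of the 191 LINC RNAs after CAFS-CM (x axis) and CAFR-CM (y axis), each the mean of 3 samples on a log axis, with the line of equal level. The 47 members called higher lie above the line over the whole range of levels, and the 7 called lower lie between 1.99 and 12.6 FPKM after CAFS-CM.

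The excess of higher calls lay in the more abundant members, at 5 FPKM and above. Of the 25 members at 10 FPKM or more, 17 were higher (68.0%) and 1 was lower (4.0%). Among the 6572 genes with a mean of 10 to 100 FPKM, 18.0% were higher and 27.8% lower. The median log2 fold change was 0.32 for these members and -0.05 for those genes. Between 5 and 10 FPKM 11 of 30 members were higher (36.7%), against 20.9% of all genes in that range. Below 5 FPKM the members' shares were under those of all genes, with 11 of 61 higher (18.0% against 22.1%) between 2 and 5 FPKM and 8 of 75 (10.7% against 19.7%) between 1 and 2 FPKM. Lower calls were about as common among members as among all genes of like level below 10 FPKM, with 1.33% against 1.77% at 1 to 2 FPKM, 3.28% against 3.99% at 2 to 5 FPKM and 10.0% against 10.3% at 5 to 10 FPKM. The median log2 fold change was 0.21 for members and 0.19 for all genes at 1 to 2 FPKM, 0.24 and 0.14 at 2 to 5 FPKM, and 0.14 and 0.05 at 5 to 10 FPKM. The difference from other genes was thus largest at 10 FPKM or more, in both directions of call. Median-of-ratios scaling left 12 of the 25 abundant members higher, with 12.3% of the genes of like level.

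**Figure D2:**
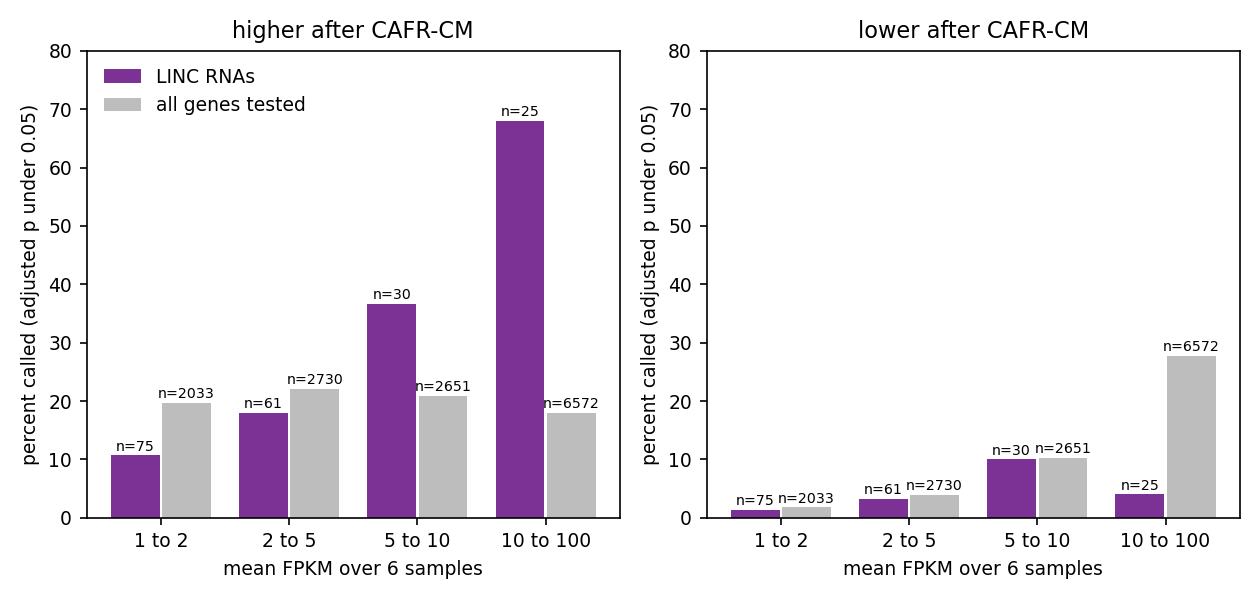
Share of LINC RNAs and of all genes tested that were called higher (left) or lower (right) after CAFR-CM at an adjusted p under 0.05, by mean FPKM over the 6 samples, with the number of genes over each bar. The share of higher calls among LINC RNAs runs from 10.7% at 1 to 2 FPKM to 68.0% at 10 to 100 FPKM, where 18.0% of all genes were higher.

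The most abundant member was LINC00673, a transcript of chromosome 17 known from a pancreatic cancer risk locus. Its FPKM was 52.77, 50.04 and 48.62 after CAFS-CM and 61.23, 60.43 and 67.07 after CAFR-CM. The groups did not overlap, and the log2 fold change was 0.31 (standard error 0.05, limma adjusted p = 0.00596). LINC00673 (chr17:72403322-72592804, RefSeq) lies inside the interval that GENCODE gives LINC00511 (chr17:72290091-72640472), so reads of this locus may have been divided between the names. LINC00511 was at 1.91, 1.60 and 1.12 FPKM and at 0.88, 2.55 and 2.09 FPKM, overlapped between groups and was not called (limma adjusted p = 0.762).

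LINC00662 (chr19:27681072-27794005, minus strand) was at 30.71, 27.45 and 31.51 FPKM after CAFS-CM and 42.33, 45.55 and 42.39 after CAFR-CM (log2 fold change 0.53, limma adjusted p = 0.00127). LINC01578, now named CHASERR and known to restrain the chromatin remodeler gene CHD2 beside it, was at 29.22, 29.71 and 34.49 FPKM and rose to 39.44, 45.03 and 39.80 (log2 fold change 0.40, limma adjusted p = 0.0108). CHD2, which CHASERR overlaps in the annotation, had a log2 fold change of 0.12 and was not called (limma adjusted p = 0.287). LINC00205 and LINC01278 were also among the 6 of highest level and rose by log2 fold changes of 0.37 and 0.19. LINC00674, at 35.5 ± 1.90 and 33.6 ± 3.32 FPKM (SD, n = 3), overlapped between groups and was the only one of the 6 not called. The annotation gives it only 160 exonic bases, of whose 75-base stretches 37.2% occur in another gene.

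LINC02575 was one of the 2 members past the fold limit. On chromosome 21 (chr21:44485463-44495519, plus strand), it was at 7.92, 8.46 and 6.49 FPKM after CAFS-CM and 18.06, 23.71 and 22.00 after CAFR-CM. The ratio of the means was 2.79 and the log2 fold change 1.37 (standard error 0.12, limma adjusted p = 4.67e-04). LINC01643, the other (chr22:34017422-34218796, plus strand), named after its values were seen, was at 1.89, 6.35 and 1.79 FPKM and at 7.09, 11.03 and 10.73 FPKM. CAFS-CM replicate 2 stood apart from the other 2 of its group but below all samples after CAFR-CM. Its log2 fold change was 1.42 (standard error 0.38, limma adjusted p = 0.0341), and 1.88 without that replicate (limma adjusted p = 0.003). Leaving out CAFS-CM replicate 1 or 3 or CAFR-CM replicate 2 or 3 gave a limma adjusted p of 0.0907 to 0.108, so the call was lost in these 4 fits and kept in the other two.

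The smallest adjusted p belonged to LINC00342 (chr2:95807052-95835003, minus strand). It was at 15.28, 15.76 and 15.08 FPKM after CAFS-CM and 23.38, 22.70 and 24.31 after CAFR-CM, a rise of 0.58 on the log2 scale (limma adjusted p = 2.44e-04). LINC01770, one of the head-to-head members on chromosome 1, went from 5.45, 5.48 and 6.25 to 11.40, 11.04 and 11.58 FPKM, with the samples of each group close together (ratio 1.98, log2 fold change 0.88, limma adjusted p = 2.45e-04). LINC00482, on chromosome 17, was at 1.81, 2.04 and 1.78 FPKM and rose to 4.44, 4.00 and 4.56 (ratio 2.31, limma adjusted p = 6.47e-04). In these 3 members the replicates of a group lay close together and the groups far apart.

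LINC00893 and LINC00894, now named EOLA1-DT and EOLA2-DT, start beside the paralogous genes EOLA1 and EOLA2 on chromosome X and rose side by side. LINC00894 was at 8.84, 8.33 and 8.71 FPKM after CAFS-CM and 16.48, 15.88 and 14.44 after CAFR-CM (log2 fold change 0.78, limma adjusted p = 2.77e-04). LINC00893 was at 4.14, 4.34 and 5.73 FPKM and at 8.31, 9.75 and 8.71 FPKM (log2 fold change 0.80, limma adjusted p = 0.00335). The transcripts of both share stretches with 1 further annotated gene, 40.5% of those of LINC00893 and 9.69% of those of LINC00894. Whether these are the same stretches was not examined, so the pair may not be independent measurements. EOLA1 and EOLA2 themselves had log2 fold changes of -0.02 and -0.08 and were not called.

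Among the higher members known from cancer studies, LINC00963, described first in prostate cancer, was at 10.49, 8.69 and 9.90 FPKM and rose to 16.28, 14.98 and 16.47 (log2 fold change 0.66, limma adjusted p = 0.00124). LINC00467, known as a target of MYCN in neuroblastoma, was at 4.28, 5.72 and 4.93 FPKM and at 6.52, 11.32 and 11.01 FPKM (log2 fold change 0.80, limma adjusted p = 0.0265). Its CAFR-CM replicate 1 was lower than the other 2 but above every sample after CAFS-CM, and leaving out any replicate but that one gave a limma adjusted p of 0.0505 to 0.0889. Of 16 LINC RNAs listed for their place in the cancer literature, 9 were members. Of these, 4 were higher, 1 was lower and 4 were not called. Over all 191 members 24.6% were higher and 3.66% lower, and of those at 10 FPKM or more 68.0% were higher. Among the listed members at that level, LINC00673, LINC00662 and LINC00963 were higher and LINC00665 was not called. The uncalled were LINC00511, LINC00941 (log2 fold change 0.13, adjusted p = 0.175), LINC00665 (0.20, adjusted p = 0.0877, and 0.0393 without CAFS-CM replicate 1) and LINC01116 (0.22, adjusted p = 0.0985, all from limma).

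The remaining higher members with small adjusted p kept to changes of under 2-fold in most cases. LINC01786 rose from 2.87 ± 0.156 to 5.84 ± 0.462 FPKM (SD, n = 3), a ratio of 2.03. LINC01569 rose from 1.37 ± 0.225 to 3.11 ± 0.748 FPKM, a ratio of 2.26, and LINC00884, now ATP13A3-DT, from 0.653 ± 0.0666 to 1.63 ± 0.442 FPKM, a ratio of 2.49. LINC00884 reached 1 FPKM only after CAFR-CM. LINC00310, LINC02175, LINC01061 and LINC02256 rose by ratios of 1.67 to 1.94. LINC02482, LINC02604, LINC00886, LINC00869, LINC01000 and LINC01184 rose by ratios of 1.39 to 1.57, and LINC02788 and LINC00506 by 1.29 and 1.28. LINC00869 shares 49.7% of its stretches with other genes. Of these, LINC00869, LINC00884, LINC01184 and LINC00506 lost their call in 1 or 2 of the 6 fits with a replicate left out, always one without CAFS-CM replicate 2 or 3 or CAFR-CM replicate 3, at a limma adjusted p of 0.0502 to 0.0612.

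After CAFR-CM 7 members were lower, 3 of them to between 0.488 and 0.584 of their level after CAFS-CM. LINC02432 (chr4:141302910-141357096, minus strand) was at 7.75, 7.48 and 6.96 FPKM after CAFS-CM and 4.08, 3.30 and 3.44 after CAFR-CM (ratio 0.488, log2 fold change -0.87, limma adjusted p = 7.58e-04). LINC00857, studied mainly as a growth-promoting transcript of lung and other carcinomas, was at 5.93, 7.20 and 6.11 FPKM and at 3.41, 3.55 and 3.43 FPKM (ratio 0.54, limma adjusted p = 0.00138). LINC01836, on chromosome 19, was at 6.01, 6.73 and 6.82 FPKM and at 3.51, 3.96 and 3.95 FPKM (ratio 0.584, limma adjusted p = 0.00169). In each of the 3 the groups were well apart, and they were lower under every alternative tried.

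LINC00261, a transcript of endoderm that is made beside the transcription factor gene FOXA2, was at 6.12, 7.02 and 7.35 FPKM after CAFS-CM and 3.78, 5.28 and 4.64 after CAFR-CM. Its log2 fold change of -0.50 had a standard error of 0.12 (limma adjusted p = 0.0218). The adjusted p was 0.0755 without CAFS-CM replicate 2, 0.0792 without CAFS-CM replicate 3 and 0.051 without CAFR-CM replicate 3. LINC01224, LINC01963 and LINC00472 fell less or were lower in level, with ratios of 0.603, 0.775 and 0.866 and adjusted p of 0.0203, 0.0293 and 0.0449 from limma. Each of these calls was lost in 4 or 5 of the 6 fits with a replicate left out, among them those without CAFS-CM replicate 2 or 3 and without CAFR-CM replicate 3, at a limma adjusted p of 0.0543 to 0.149. LINC01224 also lost it without CAFR-CM replicate 2, and LINC01963 and LINC00472 without replicate 1 of either group.

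**Figure D3:**
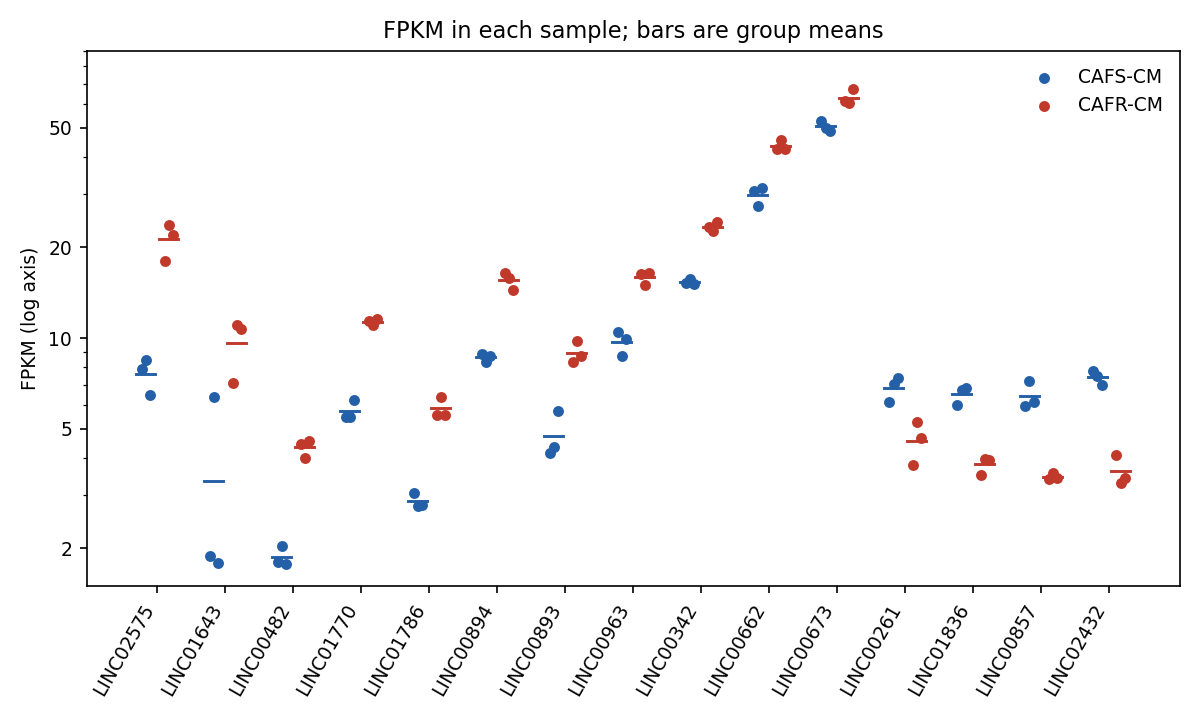
FPKM in each of the 6 samples (log axis) for 15 LINC RNAs, 11 higher and 4 lower after CAFR-CM, with the group mean as a bar. In every one of them the 3 samples of a group lie on 1 side of the other group, with LINC01643 the widest spread after CAFS-CM (1.79 to 6.35 FPKM).

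Some members did not follow the other samples of their group and were not called. LINC02613, at 26.83, 20.20 and 30.42 FPKM after CAFS-CM, was at 6.47 FPKM in CAFR-CM replicate 1 and at 22.65 and 23.35 FPKM in the other 2. Its fold change therefore came from 1 sample. LINC00630 was at 5.08 FPKM in CAFS-CM replicate 2 and between 1.51 and 2.46 FPKM in the other 5 samples. Both were picked after their values were seen.

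Many lncRNAs are made from the same stretch of open chromatin as a neighbouring gene, so the members were set beside the nearest protein-coding gene on each side. For 160 members the closer of these was tested. Across these pairs the log2 fold changes of member and neighbour had a Pearson r of 0.35 and a Spearman rho of 0.29, which is a description across genes, since both values of a pair come from the same 6 libraries. For the 46 called members with a tested neighbour the values were 0.50 and 0.39. In 13 of the 46 pairs both were called higher and in 3 both lower. In 3 the member was higher and the neighbour lower, and in none was the member lower and the neighbour higher. Over all 160 closer flanking genes 33 were higher and 25 lower. The background shares were 15.1% and 11.1% of all genes tested, and 19.5% and 17.2% of the 14820 genes averaging 1 FPKM or more. Whether the flanking counts differ from these shares was not tested. Member and neighbour changed with the same sign in 62.5% of the 160 pairs and 73.9% of the 46. For the 56 pairs with a flanking gene within 10000 bases this share was 55.4%, with a Pearson r of 0.49. Among the 29 members that overlapped a tested gene the relation was not seen (Pearson r -0.07 and Spearman rho -0.12). LINC00472, lower, overlapped OGFRL1, which rose by 0.34, and LINC01278, higher, overlapped SPIN4, which had a log2 fold change of -0.34.

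**Figure D4:**
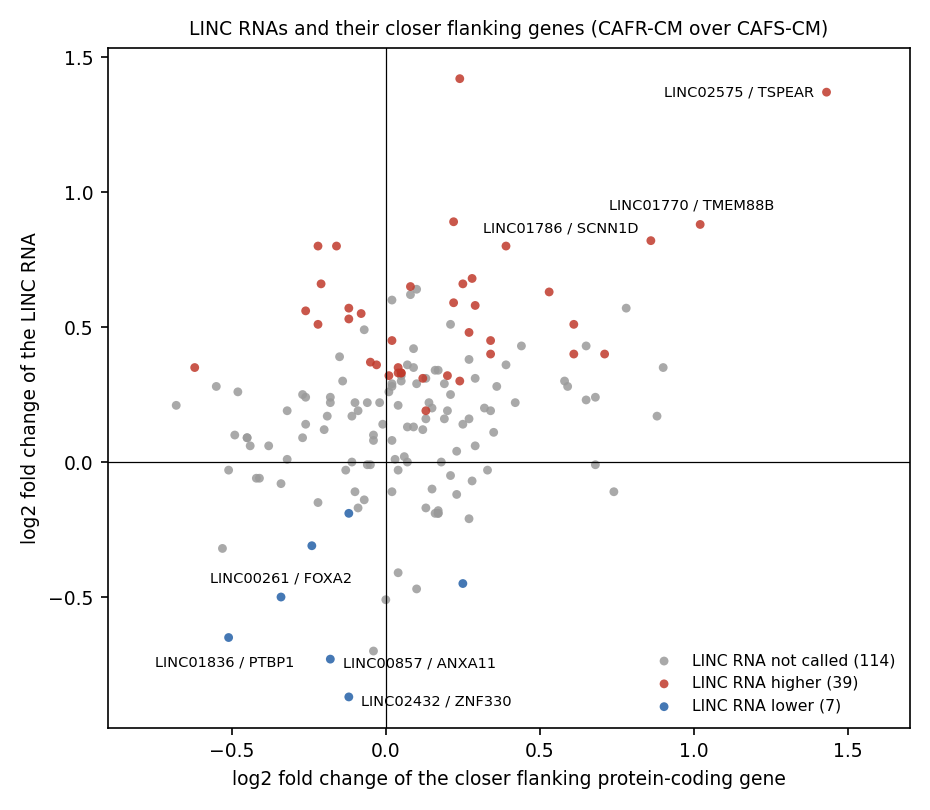
Log2 fold change (CAFR-CM over CAFS-CM) of 160 LINC RNAs (y axis) against that of the closer flanking protein-coding gene (x axis), 1 point per member, colored by the call of the LINC RNA. Higher members are found at both signs of the neighbour, and the largest joint rise is LINC02575 with TSPEAR (1.37 and 1.43).

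The pairs that moved together named several loci. LINC02575 lies 2374 bases from TSPEAR and 23267 bases from LRRC3. TSPEAR was at 0.48, 0.40 and 0.51 FPKM after CAFS-CM and 2.13, 3.24 and 3.58 after CAFR-CM (log2 fold change 1.43, limma adjusted p = 9.10e-04), and LRRC3 rose by 0.53. LINC01770 lies between VWA1, a matrix protein gene 288 bases from it, and TMEM88B, 284 bases away on the other side. TMEM88B rose by 1.02 on the log2 scale, from 8.94, 7.28 and 6.53 to 16.48, 15.90 and 16.41 FPKM, while VWA1, which shares its start region with LINC01770, had a log2 fold change of 0.12 and was not called.

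LINC01786 ends 16 bases from SCNN1D, the gene of the delta subunit of the epithelial sodium channel, on the same chromosome arm as LINC01770. SCNN1D was at 1.28, 1.32 and 1.61 FPKM and at 3.13, 3.92 and 3.10 FPKM (log2 fold change 0.86, limma adjusted p = 0.00193), close to the 0.82 of LINC01786. Reads in so short a gap may belong to either gene. On its other side UBE2J2, a ubiquitin-conjugating enzyme gene of the endoplasmic reticulum, fell by 0.28. LINC00467 and TRAF5, an adaptor of tumor necrosis factor receptors, rose by 0.80 and 0.39. LINC01184, now SLC12A2-DT, and SLC12A2, the sodium-potassium-chloride cotransporter gene, rose by 0.45 and 0.34. LINC00310 and MRPS6, a mitochondrial ribosomal protein gene, rose by 0.68 and 0.28.

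TIPARP, which encodes a mono-ADP-ribosyltransferase induced by the aryl hydrocarbon receptor, lies 40573 bases from LINC00886. It is not the nearest gene, since the start of LEKR1 lies 8419 bases from that of LINC00886. TIPARP was at 7.09, 7.20 and 7.64 FPKM after CAFS-CM and 19.04, 19.45 and 19.41 after CAFR-CM. Its log2 fold change of 1.29 (limma adjusted p = 1.46e-05) was larger than the 0.52 of LINC00886. LINC00506 showed the opposite sign to a neighbour. It rose by 0.33, while VGLL3, a cofactor of TEAD transcription factors 97980 bases away, fell from 8.88, 8.33 and 7.93 to 2.46, 2.54 and 2.62 FPKM (log2 fold change -1.40, limma adjusted p = 5.25e-05).

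The lower members had lower neighbours in 3 cases. FOXA2, 2356 bases from LINC00261, was at 61.12, 54.62 and 55.33 FPKM after CAFS-CM and 49.69, 43.08 and 41.90 after CAFR-CM (log2 fold change -0.34, limma adjusted p = 0.0167). LINC01836 lies between MISP, a gene of mitotic spindle positioning, and PTBP1, a splicing repressor gene. PTBP1 fell from 277.67, 279.74 and 272.42 to 200.67, 196.18 and 185.53 FPKM, a log2 fold change of -0.51, and MISP had -0.50. LINC01963 lies between XRCC5, the gene of the DNA end-binding protein Ku80, and the ubiquitin ligase gene MARCHF4, which fell by 0.24 and 0.51. ANXA11, 1800 bases from LINC00857, had a log2 fold change of -0.18 and was not called (limma adjusted p = 0.0903).

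Members that start head to head with a protein-coding gene were set beside that gene. Of these 15, 8 were higher (53.3%) and none was lower. Of the 168 other members with an annotation 36 were higher (21.4%) and 7 lower (4.17%). Among all genes with a mean of at least 1 FPKM 19.5% were higher and 17.2% lower. The 15 partner genes are too few to tell their counts from these shares. Of their 15 partner genes 1 was higher, SLC12A2, and 4 were lower, CAPN15, SETD1B, ZFP36L2 and C1orf174, whose LINC partners were not called. LINC00205 and POFUT2, a protein O-fucosyltransferase gene 137 bases away, had log2 fold changes of 0.37 and -0.05. LINC02340 and the ribosomal protein gene RPL21 had 0.45 and 0.02, and LINC00649 and ATP5PO, a subunit gene of ATP synthase, had 0.32 and 0.13. LINC00649 lost its call without CAFS-CM replicate 1 (limma adjusted p = 0.0605), and LINC02340 lost it in every fit with a replicate left out except that without CAFR-CM replicate 1, at a limma adjusted p of 0.053 to 0.0733. No test of the difference between head-to-head and other members was made.

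Since the RNA exosome, its adaptors and the Integrator complex shorten the life or end the making of many lncRNAs, their genes were read in the same fit. Of 39 such genes tested, 9 were lower, 3 were higher and 27 were not called. Of the lower, 5 encode exosome subunits, EXOSC2, EXOSC4, EXOSC5, EXOSC9 and EXOSC10, with log2 fold changes of -0.30, -0.33, -0.63, -0.46 and -0.17. SRRT, which links the cap-binding complex to RNA decay, fell by 0.48 and the cap-binding gene NCBP1 by 0.24, and the Integrator genes INTS3 and INTS5 fell by 0.23 and 0.22. EXOSC6, INTS6 and ZCCHC7 rose by 0.26, 0.29 and 0.16. The list had a median level of 15.4 FPKM, and 23.1% of it was lower and 7.69% higher, against 27.8% and 18.0% of all genes at 10 to 100 FPKM, so that neither share was above the background. The part of these genes in the levels of the LINC RNAs was not tested.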

How the data were processed

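RNA of Panc-1 cells was measured in 6 samples, 3 per group, from rRNA-depleted, strand-marked (dUTP) libraries. The paper's methods state that the authors filtered reads with SOAPnuke, used HISAT2 (version 2.0.4) to map them to GRCh38.p13 and RSEM (version 1.2.12) to quantify genes. DESeq2 (version 1.4.5) was used by the authors for their own test. Bowtie2 (version 2.2.5) also appears in the submitters' processing notes. The annotation of the counting and its use of strand were not given in the sources used here, so that reads of a LINC RNA and of a gene overlapping it cannot be told apart with certainty. The authors deposited 1 table of FPKM for each gene in each sample, with 2 decimals. FPKM are scaled to transcript length and library total. A change in a few abundant RNAs can thus move the FPKM of other genes, and counts cannot be read from them. The 55272 circular RNA rows of the table's 97767 hold no value here and were not used. The design had foreseen counts or FPKM, and the FPKM test was used.

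The test was limma (version 3.58.1) in R (version 4.3.3) on log2(FPKM + 1), with group as the only term and a mean-variance trend. It took the 23608 genes over 0.1 FPKM in 3 samples or more, and p-values were adjusted by Benjamini-Hochberg over all of them. The fit was tested on simulated data. Groups came from the sample titles. The members and lists were chosen with earlier results of these data known. Named were the 30 called members with the smallest adjusted p, all lower ones, the 6 of highest level, those next to the limit, the members of a list from the literature and the neighbours of called members. LINC01643, LINC02613, LINC00630, LINC00649, LINC02340, the head-to-head partners and the pairs of shared sequence were named after their values were seen. Symbols were matched to GENCODE v44 (GRCh38) and RefSeq (GRCh38.p14), and shared 75-base stretches and promoter motifs were counted with Python (version 3.11.15) and pandas (version 2.3.3). Alternatives were another pseudocount, no filter, a mean of at least 1 FPKM, a replicate block, single replicates left out, cyclic loess and median-of-ratios scaling, no trend, group weights, a stricter threshold and other member limits.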

Additional observations from a re-analysis of the deposited data

How the results depend on the processing

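Of the 40 called members named, 22 kept their call in all 15 settings tried, LINC02432, LINC00857 and LINC01836 among the lower. The 47 higher and 7 lower members became 22 and 5 without a filter on low values, 19 and 3 at an adjusted p under 0.01, and 29 to 42 and 3 to 6 with single replicates left out. They were 34 and 9 after cyclic loess and 32 and 7 after median-of-ratios scaling. Median-of-ratios scaling also brought all genes to 2692 higher and 3987 lower (40.3% of calls higher, against 57.5% as deposited), while 82.1% of the members' calls were higher, against 87.0%. The members' median of 0.22 became 0.32 with a pseudocount of 0.1, 0.08 after cyclic loess scaling and 0.16 after median-of-ratios scaling, and 0.20 and 0.25 with a member limit of 0.5 and 2 FPKM. Past the fold limit, 5 higher and 1 lower were found with a pseudocount of 0.1, 1 higher each without a filter, with group weights and at an adjusted p under 0.01, and 1 to 3 with single replicates left out. LINC00511, not called, turned from 0.12 to -0.04 after cyclic loess scaling, and ranged from -0.07 to 0.39 with single replicates left out.

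The replicate numbers did not pair the samples (correlations of same-numbered deviations of 0.0198, -0.0285 and 0.0621). With the replicate block 36 members were higher and 4 lower, 35 and 4 of them shared with the fit without it.

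The following were added after seeing the data. Of the members at 10 FPKM or more, 9 were higher without a filter, 8 at an adjusted p under 0.01 and 13 to 15 with single replicates left out, and the 1 lower member became 0 without a filter, with the replicate block, without a trend, at an adjusted p under 0.01 and in 5 of the 6 fits with a replicate left out (0 to 1). At an adjusted p under 0.01, all genes numbered 1751 higher and 1431 lower, flanking genes 15 and 16 (30 and 25 otherwise), decay genes 1 and 5, and other lncRNA classes 35 and 7 (68 and 16 otherwise). The 30 and 25 flanking genes are a separate count from the 33 and 25 over the 160 pairs above. Median-of-ratios scaling gave 38 flanking genes lower, 1 decay gene higher and 28 of the other classes lower, leaving out the trend gave 1 decay gene higher, and fitting without a filter gave 10 of the other classes lower. With single replicates left out, all genes ranged from 2264 to 3316 higher and 1778 to 2351 lower, flanking genes higher from 17 to 26, decay genes higher from 1 to 3, and other classes lower from 9 to 17. The causes were not tested. Count-based tools were not run, since the table holds no counts.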

Other observations

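Other classes of lncRNA names were read in the same fit, among genes with a mean of at least 1 FPKM. Of all genes with that mean, 19.5% were higher and 17.2% lower. Of 214 antisense RNAs (names ending in -AS and a number), 50 were higher (23.4%) and 8 lower (3.74%) after CAFR-CM. Their median log2 fold change was 0.18, close to the 0.22 of the LINC RNAs. Of 43 divergent transcripts (-DT), 9 were higher (20.9%) and 2 lower (4.65%), with a median of 0.20. Of 17 microRNA host genes, 8 were higher (47.1%) and 2 lower (11.8%), with a median of 0.35. Of 24 small nucleolar RNA host genes (SNHG), 1 was higher (4.17%) and 4 lower (16.7%), with a median of -0.18. The SNHG genes had a median level of 16.0 FPKM. Among all genes at 10 to 100 FPKM 18.0% were higher and 27.8% lower, with a median of -0.05. These classes were not tested against one another.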
